A study of Equus caballus with 15 samples.

Results

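A pair of injectable products used for joint disease in horses was set side by side on the same kind of cell. The comparison was between equine macrophages given autologous conditioned serum (ACS) together with IL-1ß and macrophages given mesenchymal stromal cell conditioned medium (MSC-CM) together with IL-1ß. It rested on 6 of the 15 libraries of the series, 3 with ACS and 3 with MSC-CM, and on the 11628 of 16932 listed genes whose mean over all 15 libraries was at least 1 CPM (reads of a gene, scaled to a common library total). The study set such products against each other for their effects on inflammation and on immune cells.

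Macrophages were grown from blood mononuclear cells of 2 horses over 5 days with human M-CSF at 30 ng/ml, in medium with fetal bovine serum. In both groups IL-1ß at 10 ng/ml and the product, as 25% of the medium, were added together for 24 h. ACS is the serum of blood that was incubated in a commercial device to enrich its natural antagonist of IL-1. MSC-CM is the growth medium, itself made with fetal bovine serum, in which bone marrow stromal cells had been kept. Both products were prepared from the same 3 donor horses, which were not the blood donors of the macrophages. Which ACS library shares a donor with which MSC-CM library was not resolved here, so the model takes the 6 libraries as unpaired. Macrophages with IL-1ß alone and untreated macrophages, 3 libraries each, serve below as reference levels, and the study describes these as technical replicates. Platelet lysate, a further product, was given to the remaining 3 libraries, which enter here only through the shared estimate of spread. The study's methods give a further 24 h of culture after washing, while the sample descriptions have the cells collected after the wash. Unconditioned horse serum and unconditioned stromal cell medium were not analysed here, so an effect of conditioning and an effect of serum or of the base medium cannot be told apart.

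IL-1ß is a cytokine of joint inflammation that acts on its receptor through NF-kB and AP-1, and macrophages answer it with chemokines, cytokines, adhesion molecules and proteases. Macrophages also change state with their surroundings. IL-4 and IL-13 bring up the chemokines CCL17 and CCL22, glucocorticoids bring up the haemoglobin scavenger receptor CD163, and a shortage of amino acids brings up enzymes of serine and asparagine synthesis through the transcription factor ATF4. Serum carries growth factors, hormones, lipids and clotting products, whereas stromal cells secrete prostaglandins, cytokines and matrix proteins.

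The 6 libraries held 36666748 to 47894097 reads counted on genes, within a range of 28410705 to 47894097 over the series, so that 1 CPM stood for at least 36.7 reads. The 3 libraries of each group are named replicates 1 to 3 below in the order of their records. Spread between replicates, taken as the median over genes of the SD of log2(CPM + 1), was 0.135 with ACS and 0.191 with MSC-CM, against 0.199 in untreated macrophages, 0.326 with platelet lysate and 0.437 with IL-1ß alone. Markers of macrophages were abundant in both groups, with CD68 at 1602 to 1683 CPM with ACS and 1393 to 1489 CPM with MSC-CM and the mannose receptor MRC1 at 1612 to 2591 and 2099 to 2503 CPM. CD14 reached only 1.38 to 2.86 CPM over the 6 libraries. T cell markers were present as well, summing to 1122 to 1421 CPM with ACS and 1840 to 2013 CPM with MSC-CM over 18 genes, with 17 of them tested. In bulk RNA fewer cells of a type and less RNA per cell cannot be told apart.

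The genes of the chemokines CCL22, CCL17, CCL3 and CXCL1, of activin A (INHBA), of tissue factor (F3) and of the receptor CD40 were higher with ACS. Those of the scavenger receptors CD163 and CD163L1, of the amino acid enzymes PSAT1 and ASNS and of the chaperone HSPA5 were lower. In all, 143 genes, or 1.23% of those tested, differed at least 2-fold with an adjusted p of at most 0.05 (limma on log2(CPM + 1), Benjamini-Hochberg adjustment over 11628 genes), and "called" below means past both limits. Of these, 69 (0.593%) were higher with ACS and 74 (0.636%) were lower. The log2 fold change, taken on log2(CPM + 1) here and below, was at least 2 in size in 10 of the former and 12 of the latter. A fold given as such is the ratio of mean CPM, which is larger for genes of low level. In every called gene the 3 ACS libraries lay wholly above or below the 3 MSC-CM libraries, as they did in 35.1% of all genes tested. The median of all genes tested was -0.04 and the median absolute log2 fold change 0.22. Scaling by the median ratio of counts (RLE size factors) in place of the total called 137 genes (1.18%) and turned the split into 87 higher and 50 lower, and TMM factors into 85 and 51.

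The number of called genes varied with the libraries in the fit. Leaving out 1 library at a time gave 77, 58 and 80 genes without ACS replicate 1, 2 and 3, and 78, 125 and 53 without MSC-CM replicate 1, 2 and 3. Of the 143 genes, 48 were called in all of these 6 fits, 27 of them higher with ACS and 21 lower, and 24 were called in none. A fit of the 6 libraries alone called 323 genes (2.78%), which included all 143, and a fit without the 2 libraries of other groups that stand apart called 324. Both fits keep the same group means, so signs could not differ. The pair was taken as the treated groups with the tightest replicates, so a fit on their spread alone is not independent of that choice. Below, a called gene is followed by the number of the 6 fits leaving out 1 library in which it stayed called, or by the libraries without which the call was lost. Counts of called genes in a list stand against the 0.593% called higher and 0.636% called lower among all genes.

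**Figure D1:**
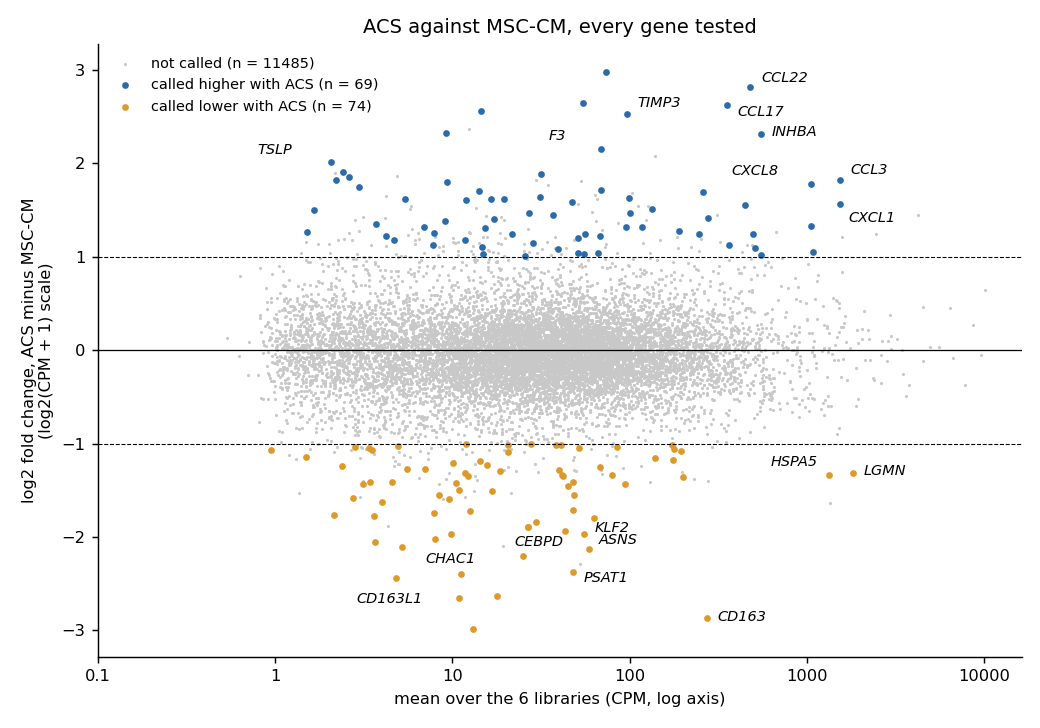
Each point is 1 of the 11628 genes tested, placed by its mean over the 6 libraries (CPM, log axis) and its log2 fold change, ACS minus MSC-CM, with called genes in colour and dashed lines at 2-fold. The 69 genes higher with ACS include abundant chemokines at the right, and CD163 lies lowest among the genes above 100 CPM.

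Of the CC chemokines, CCL22, CCL17 and CCL3 were higher with ACS. CCL22, a ligand of CCR4 that draws T helper 2 and regulatory T cells, stood at 836, 781 and 901 CPM with ACS and at 117, 157 and 89.0 CPM with MSC-CM. The groups lay far apart and the fold was 6.93 (log2 fold change 2.82 ± 0.29 SE, adjusted p = 0.000447, limma, called in 6 of 6 fits). CCL17, the other ligand of the same receptor, stood at 743, 634 and 449 CPM against 113, 106 and 72.7 CPM. Its log2 fold change was 2.63 ± 0.46 (adjusted p = 0.0102, limma), and the call was lost without ACS replicate 1 or 2 or MSC-CM replicate 3 (adjusted p of 0.0573, 0.0629 and 0.0739). CCL3, a macrophage inflammatory protein, was the most abundant of the 3, at 2628, 2375 and 2204 CPM against 846, 694 and 528 CPM (log2 fold change 1.82 ± 0.21, adjusted p = 0.00123, limma, called in 6 of 6 fits). An unnamed entry that overlaps CCL3 was called higher too (6 of 6 fits), and how reads were divided between them is uncertain.

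Of 10 CC chemokines tested, those 3 were called, all higher with ACS. CCL2, CCL8, CCL11 and CCL20 differed by 0.15 or less on the log2 scale, and none of these 4 kept its groups apart. CCL24, an eotaxin, went the other way without being called, at 1.20, 1.11 and 0.752 CPM with ACS and 5.66, 4.29 and 5.03 CPM with MSC-CM (log2 fold change -1.57 ± 0.41, adjusted p = 0.0823, limma). CCL14 did likewise (log2 fold change -1.35 ± 0.39, adjusted p = 0.111, limma). The family therefore did not move as a block, and its median log2 fold change was 0.11, between 0.05 and 0.34 when 1 library was left out.

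Among 9 CXC, XC and CX3C chemokines tested, CXCL8 and CXCL1 were called, both of them ligands that recruit neutrophils. CXCL1 stood at 2613, 1859 and 2432 CPM with ACS and 729, 724 and 858 CPM with MSC-CM. That was a 2.99-fold difference (log2 fold change 1.57 ± 0.26, adjusted p = 0.00759, limma, called in 6 of 6 fits). CXCL8 stood at 1748, 1233 and 1927 CPM against 395, 402 and 645 CPM (log2 fold change 1.78 ± 0.39, adjusted p = 0.0361, limma). Although its groups lay apart, the call was lost in each of the 6 fits, with adjusted p from 0.0739 to 0.150. CXCL6, of the same neutrophil group, had all ACS libraries higher (631, 346 and 393 CPM against 167, 126 and 200 CPM) without being called (adjusted p = 0.125, limma). An entry with no symbol in the deposited values, between CCL22 and CCL17, is in neither list. It stood at 33.9, 25.5 and 17 CPM against 2.65, 4.81 and 2.81 CPM (log2 fold change 2.56 ± 0.35, adjusted p = 0.00298, limma, called in 6 of 6 fits). In RefSeq's TB-T2T horse assembly the gene between these chemokines is CX3CL1, which encodes fractalkine. The paper's ACS results give the entry's identifier with that name as its alternative, though no table used here pairs them.

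Transcripts of the 11 mediators that the study could measure in supernatants, with PTGS2 standing for prostaglandin E2, were looked at as a list whatever their result. Besides CXCL8 and CXCL1, TNF and IFNG were called, so that 4 of 11 were higher with ACS and none was lower. TNF, the archetypal inflammatory cytokine, stood at 76.8, 80.1 and 81.5 CPM with ACS and 34.4, 36.1 and 28.8 CPM with MSC-CM. Its log2 fold change was 1.24 ± 0.27 (adjusted p = 0.0345, limma), a call lost in each of the 6 fits (adjusted p 0.0770 to 0.172). IFNG, a product of T and NK cells, stood at 22, 16.7 and 22.3 CPM against 7.70, 12.9 and 8.07 CPM. It was called (log2 fold change 1.03 ± 0.24, adjusted p = 0.0436, limma) and stayed so in 1 of 6 fits, that without MSC-CM replicate 2.

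The other 7 mediators did not pass. IL1B stood at 34.1, 16.6 and 19 CPM with ACS and 6.43, 6.61 and 10.1 CPM with MSC-CM. All ACS libraries were the higher ones, yet its log2 fold change of 1.43 had a standard error of 0.67 (adjusted p = 0.373, limma). In the fit of the 6 libraries alone, which rests on the tight spread this pair was taken for, the adjusted p was 0.0101 (limma). IL6 was the only mediator with all ACS libraries lower, at 17.5, 10.4 and 6.01 CPM against 23.6, 19 and 22.2 CPM (log2 fold change -0.98 ± 0.51, adjusted p = 0.433, limma). The log2 fold change was 0.92 for CCL5 and 0.79 for IL4, with the groups apart and adjusted p of 0.145 and 0.0897 (limma). For IL10 (-0.30), CXCL10 (0.15) and PTGS2 (0.64) the groups overlapped. IL1RN, the gene of the natural IL-1 antagonist, stood at 588, 455 and 460 CPM with ACS and 312, 312 and 354 CPM with MSC-CM (log2 fold change 0.61 ± 0.19, adjusted p = 0.133, limma). These are levels of macrophage RNA and say nothing of antagonist protein brought in by the serum.

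**Figure D2:**
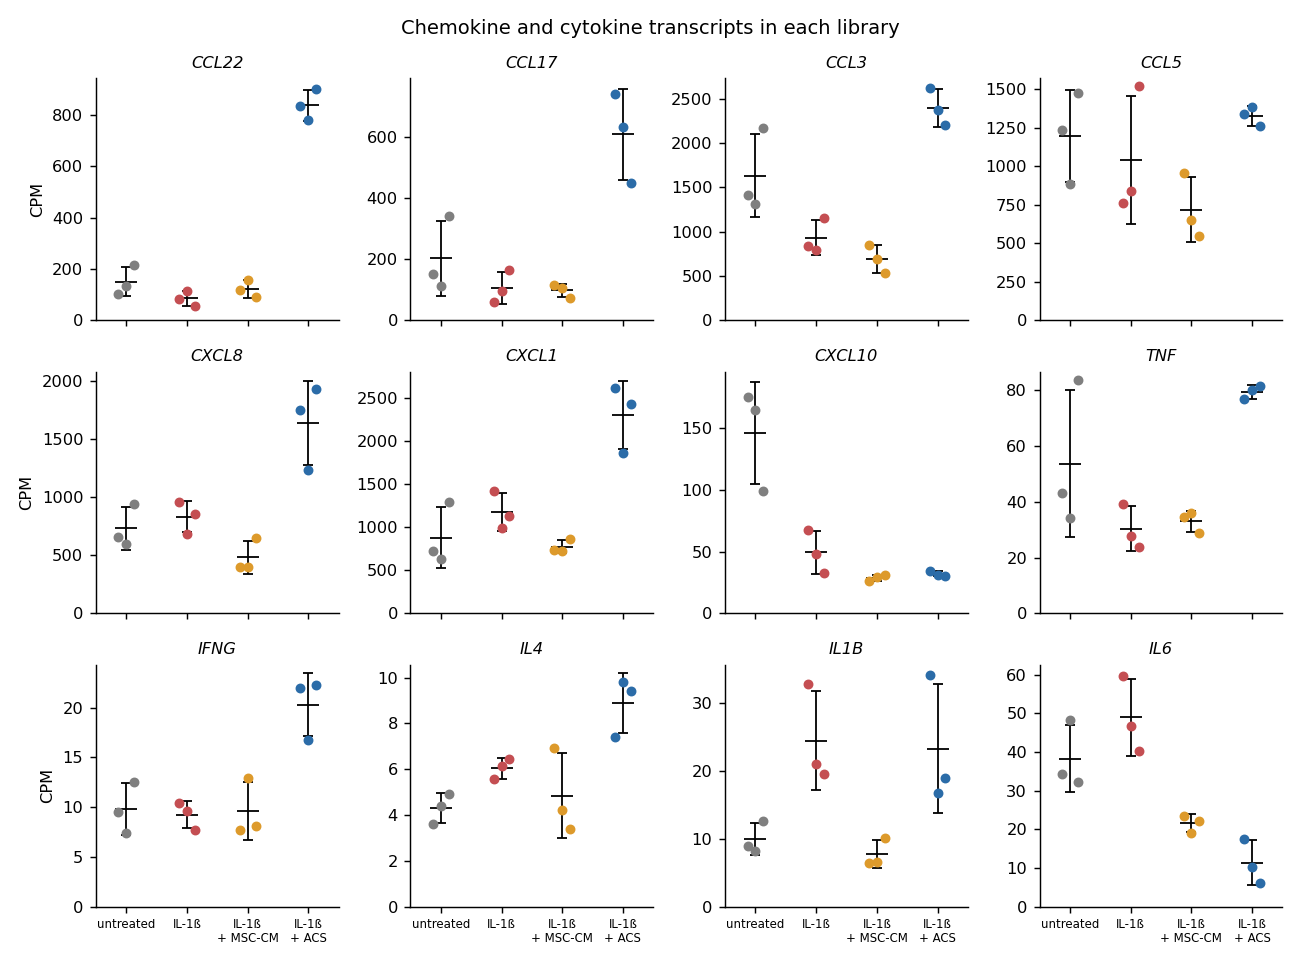
CPM of 12 chemokine and cytokine transcripts in each library of 4 groups, with every library as a point and the mean ± SD as bars. CCL22, CCL17, CCL3, CXCL1, TNF and IFNG have the 3 ACS libraries above the 3 MSC-CM libraries, IL6 has them below, and CXCL10 overlaps.

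Growth factors and other cytokines showed the same direction among their called members. Of 27 interleukins and growth factors tested, 5 were called, all higher with ACS. INHBA, whose product forms activin A, was the most changed, at 834, 880 and 1034 CPM with ACS and 122, 274 and 184 CPM with MSC-CM (log2 fold change 2.31 ± 0.37, adjusted p = 0.00621, limma, called in 6 of 6 fits). HBEGF, a ligand of the EGF receptor, had a log2 fold change of 1.28 (282, 265 and 260 CPM against 101, 126 and 106 CPM) and stayed called in 1 of 6 fits. BMP2, a bone morphogenetic protein, rose from 4.96 to 9 CPM with MSC-CM to 15.8 to 18.3 CPM with ACS (1 of 6 fits). CSF2, which encodes GM-CSF, had a log2 fold change of 1.15 (36.0, 33.8 and 49.4 CPM against 18.5, 18.8 and 14.4 CPM, 0 of 6 fits), and TNF was the fifth. CSF1, which encodes the very factor the cells were grown in, was abundant and higher in all ACS libraries, at 3177, 3743 and 3445 CPM against 1233, 1877 and 1333 CPM, without being called (log2 fold change 1.24 ± 0.35, adjusted p = 0.111, limma).

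Called cytokine genes outside that list included TSLP and IL13. TSLP, an alarmin of epithelia and myeloid cells, was at 4.12, 2.92 and 4.78 CPM with ACS and at 0.113, 0.129 and 0.398 CPM with MSC-CM, and it was listed at 0 in all 3 libraries with IL-1ß alone. Its log2 fold change was 2.02 ± 0.24 (adjusted p = 0.00136, limma, called in 6 of 6 fits). IL13 stood at 45.3, 50.5 and 46.0 CPM against 21.0, 12 and 11.9 CPM (log2 fold change 1.64 ± 0.22, adjusted p = 0.00252, limma, called in 6 of 6 fits). LTA, which encodes lymphotoxin alpha, was higher with ACS as well (17.4, 25.3 and 23.1 CPM against 8.13, 11.5 and 5.80 CPM, log2 fold change 1.31, called in 1 of 6 fits). IL13, LTA, IFNG and CSF2 are transcripts that T cells make, and they were higher in the group with the lower sum of T cell markers. The part of these cells in the difference was not tested.

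In the IL-1 family, 1 of 14 genes tested was called. IL1R2, the decoy receptor that binds IL-1 without signalling, stood at 135, 97.9 and 85.0 CPM with ACS and 29.1, 29.3 and 35.2 CPM with MSC-CM (log2 fold change 1.71 ± 0.24, adjusted p = 0.00298, limma, called in 6 of 6 fits). The signalling receptor chain IL1R1 (-0.27) and its partner IL1RAP (-0.37) had overlapping groups. IL18 lay lower in all ACS libraries without being called (log2 fold change -1.10 ± 0.39, adjusted p = 0.207, limma). Of the 14 members, 7 had all ACS libraries above and 3 had all below, beside 12.9% and 22.2% of all genes tested.

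NF-kB target genes, which carry the transcriptional answer to IL-1ß, counted 4 called members of 47 tested, all higher with ACS. CD40, a costimulatory receptor of antigen-presenting cells, stood at 218, 205 and 171 CPM with ACS and 75.2, 80.6 and 52.8 CPM with MSC-CM (log2 fold change 1.51 ± 0.18, adjusted p = 0.00143, limma, called in 6 of 6 fits). ICAM1, an adhesion molecule for leukocytes, stood at 1444, 1644 and 1323 CPM against 715, 751 and 654 CPM (log2 fold change 1.05 ± 0.14, adjusted p = 0.00240, limma). Its fold fell below 2 without ACS replicate 2 or MSC-CM replicate 3, with adjusted p still at 0.0196 and 0.0184. CD83, a marker of mature dendritic cells, had a log2 fold change of 1.12 (2 of 6 fits), and DUSP5, a phosphatase that acts on ERK, one of 1.22 (5 of 6 fits, lost without MSC-CM replicate 3). In 23 of the 47 all ACS libraries lay above, beside 12.9% of all genes, and in 3 below, beside 22.2%, and the median log2 fold change of the list was 0.31, staying between 0.28 and 0.37 when 1 library was left out.

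Immediate early and AP-1 genes had a like median of 0.38 over 31 genes, but their 1 called member fell. KLF2, a transcription factor that quiets endothelial cells and monocytes, stood at 21.8, 21.6 and 22.6 CPM with ACS and 81.9, 97.9 and 88.3 CPM with MSC-CM. Its log2 fold change was -1.97 ± 0.43 (adjusted p = 0.0351, limma), and although the groups were tight and far apart the call was lost in each of the 6 fits (adjusted p 0.104 to 0.144). KLF2 also lost its call with RLE size factors or edgeR, and IL-1ß alone spread from 45.1 to 131 CPM, which enters its standard error. NR4A3, an orphan nuclear receptor, had the largest rise of the list, at 165, 231 and 274 CPM against 32.5, 79.0 and 51.0 CPM, without being called (log2 fold change 2.08 ± 0.61, adjusted p = 0.122, limma).

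Genes of antigen presentation and of dendritic cell maturation moved in both directions. Of 28 such genes tested, CD40, CD83 and IRF8 were called higher with ACS and SLAMF9 and SLAMF8 lower, both lost with edgeR. IRF8, a transcription factor of the dendritic lineage, stood at 610, 706 and 786 CPM with ACS and 260, 335 and 294 CPM with MSC-CM (log2 fold change 1.24 ± 0.20, adjusted p = 0.00635, limma, called in 6 of 6 fits). CD1A1, which encodes a CD1 molecule that presents lipids, stood at 21.7, 17.6 and 8.87 CPM against 2.31, 3.16 and 1.43 CPM (log2 fold change 2.32 ± 0.43, adjusted p = 0.0148, limma). Its call was lost without ACS replicate 1 or 2 or MSC-CM replicate 1 or 3, with adjusted p up to 0.105. SLAMF9, a receptor of the SLAM family, was at 0.464, 0.184 and 0.480 CPM against 5.44, 1.88 and 4.40 CPM (log2 fold change -1.76, called in 1 of 6 fits). With IRF8 and ICAM1, 2 of 32 genes of the interferon gamma response were called higher. MHC class II presentation had CD1A1 higher and LGMN lower among 16 tested, and the classical class II chains DRA (0.27), DRB (0.00), DQA (0.08) and DQB (-0.02) had overlapping groups. The 12 dendritic cell markers tested included CD1A1 and IRF8 as their only called members, and the whole marker list summed to 1425 to 1853 CPM with ACS and 939 to 1091 CPM with MSC-CM. Within these sums IRF8 alone averaged 701 and 296 CPM. Of the 12, 7 had a positive log2 fold change and 5 a negative one. XCR1, CLEC9A and CD1C, which define dendritic subsets, were under 1 CPM in every library of both groups.

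The list of IL-4 and IL-13 response genes held 4 called members of 24 tested, all higher with ACS, namely CCL22, CCL17, CD1A1 and IL1R2. The other 20 did not follow as a set. MRC1 (-0.11), PPARG (-0.09), ARG2 (-0.10) and TGM2 (0.25) had overlapping groups, and the median log2 fold change of the list was 0.16, between 0.07 and 0.22 when 1 library was left out. FN1, fibronectin, was abundant and higher in all ACS libraries without being called (4370, 7534 and 6722 CPM against 2225, 3238 and 1527 CPM, adjusted p = 0.123, limma).

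Of 15 coagulation and fibrinolysis genes tested, 3 were called, all higher with ACS. All ACS libraries lay above in 5 of the 15 and below in 4, beside 12.9% and 22.2% of all genes. F3, tissue factor, the trigger of the extrinsic pathway, stood at 138, 113 and 90.5 CPM with ACS and 20.7, 25.3 and 28.0 CPM with MSC-CM (log2 fold change 2.15 ± 0.33, adjusted p = 0.00515, limma, called in 6 of 6 fits). Its inhibitor TFPI was higher as well, at 9.98, 11.4 and 11.9 CPM against 4.26, 4.11 and 5.27 CPM (log2 fold change 1.13 ± 0.16, adjusted p = 0.00332, limma, called in 6 of 6 fits). TFPI2, a related protease inhibitor, had a log2 fold change of 1.62 (16.9, 33.6 and 40.7 CPM against 8.24, 9.87 and 7.93 CPM, called in 2 of 6 fits). Trigger and inhibitor of the same pathway were thus both higher.

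Among 28 vascular and angiogenic factors tested, STC1, ESM1 and ANGPTL4 (10.7% of the list) were called, all higher with ACS. DESeq2 on whole reads called 13 of these 28, beside 292 of 13644 genes in all. STC1, a secreted glycoprotein hormone, was at 4.94, 3.66 and 3.47 CPM with ACS and 0.385, 0.437 and 0.421 CPM with MSC-CM (log2 fold change 1.82 ± 0.27, adjusted p = 0.00446, limma, called in 6 of 6 fits). ESM1, an endothelial proteoglycan, had a log2 fold change of 1.61 (9.16, 10.7 and 6.26 CPM against 2.20, 2.39 and 1.78 CPM) and lost its call without ACS replicate 2 or MSC-CM replicate 3. ANGPTL4, an inhibitor of lipoprotein lipase, stood at 111, 155 and 181 CPM against 44.3, 54.2 and 59.7 CPM (log2 fold change 1.46, called in 1 of 6 fits). The 14 endothelial markers listed summed to 130 to 162 CPM with ACS and 198 to 413 CPM with MSC-CM, and VWF, EMCN, ERG, SOX17, CLDN5 and MMRN1 among them were under 1 CPM in all 6 libraries. Of the 8 endothelial markers tested, 6 had a positive log2 fold change and 2 a negative one, with a median of 0.21, so the sum does not describe the members. All ACS libraries lay above in 2 and below in 1, and none was called. The part of endothelial cells in these differences was not tested. VEGFA, the main growth factor of vessels, had all ACS libraries below without being called (log2 fold change -0.86, adjusted p = 0.383, limma). In this list all ACS libraries lay above in 13 members (46.4%) and below in 5 (17.9%), beside 12.9% and 22.2% of all genes. The median log2 fold change of the list was 0.37.

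Among matrix turnover genes TIMP3 and MMP25 were called, both higher with ACS. Of 19 metalloproteinases, ADAMTS proteases and their inhibitors tested, 9 had all ACS libraries above, beside 12.9% of all genes, and none had all below, beside 22.2%. TIMP3, an inhibitor of metalloproteinases that binds to the matrix, stood at 172, 164 and 159 CPM with ACS and 23.4, 29.8 and 31.0 CPM with MSC-CM. The 5.88-fold difference had the smallest adjusted p of the data (log2 fold change 2.52 ± 0.21, adjusted p = 0.000293, limma, called in 6 of 6 fits), shared with 4 other genes. MMP25, a membrane-bound metalloproteinase of leukocytes, had a log2 fold change of 1.03 (79.0, 72.4 and 71.6 CPM against 33.6, 38.0 and 36.4 CPM). Its fold fell below 2 without ACS replicate 1 or MSC-CM replicate 1. The collagenases MMP1 (0.95) and MMP13 (-0.38) were not called. Of 34 extracellular matrix genes tested, the netrin relative NTNG2 was the 1 called member (log2 fold change 1.61, called in 1 of 6 fits), and of 20 cytoskeletal targets of serum response factor it was CNN3, a calponin (log2 fold change 1.11, called in 0 of 6 fits).

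Integrins and adhesion genes held 2 called members of 52 tested (3.85%, beside 1.23% of all genes), ICAM1 and ITGB5. ITGB5, a beta chain of vitronectin receptors, stood at 365, 368 and 310 CPM with ACS and 174, 158 and 112 CPM with MSC-CM (log2 fold change 1.25 ± 0.17, adjusted p = 0.00270, limma, called in 6 of 6 fits). In this list 11 members (21.2%) had all ACS libraries above and 15 (28.8%) had all below, beside 12.9% and 22.2% of all genes. Beside the chemokines CCL3, CXCL1 and CXCL8 and ICAM1, the most abundant called gene higher with ACS was FBP1, an enzyme of gluconeogenesis, at 1726, 1579 and 1178 CPM against 767, 664 and 400 CPM (log2 fold change 1.32 ± 0.29, adjusted p = 0.0361, limma, 0 of 6 fits). FBP1 also lost its call with RLE size factors or edgeR.

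The largest fall on the log2(CPM + 1) scale among genes with a symbol was that of CD163, the scavenger receptor for haemoglobin bound to haptoglobin and a marker of tissue macrophages. It stood at 92.0, 58.6 and 43.2 CPM with ACS and at 411, 322 and 710 CPM with MSC-CM. The groups did not approach each other and the difference was 7.44-fold (log2 fold change -2.86 ± 0.39, adjusted p = 0.00275, limma, called in 6 of 6 fits). Its neighbour and relative CD163L1 fell with it, from 19.1, 11 and 28.8 CPM to 2.78, 2.03 and 1.52 CPM (log2 fold change -2.65 ± 0.38, adjusted p = 0.00361, limma, called in 6 of 6 fits). No other of 19 scavenger and pattern receptors tested was called. CD36 (log2 fold change -1.41 ± 0.45, adjusted p = 0.152, limma) and STAB1 (-1.30 ± 0.53, adjusted p = 0.296, limma) had all ACS libraries below, whereas MSR1 (0.18), MARCO (0.13) and MRC1 (-0.11) overlapped, and the median of the list was -0.11, turning to 0.06 at most when 1 library was left out.

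Of 21 monocyte and macrophage markers tested, CD163 and the apoptotic cell receptor MERTK were called, both lower with ACS. MERTK stood at 26.5, 28.2 and 25.7 CPM against 47.9, 55.8 and 62.8 CPM (log2 fold change -1.02, adjusted p = 0.0278, limma), with 0 of 6 fits keeping the call, and its fold fell below 2 with RLE size factors or DESeq2. The summed level of the whole marker list overlapped between groups, at 8034 to 9995 CPM with ACS and 8643 to 10381 CPM with MSC-CM. Of the 21, 14 had a negative log2 fold change and 7 a positive one, with a median of -0.27. All ACS libraries lay below in 7 (33.3%) and above in 2 (9.52%), beside 22.2% and 12.9% of all genes.

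Transcription factors of macrophages included a steep fall of CEBPD, which takes part in inflammatory and glucocorticoid responses. It stood at 8.07, 8.40 and 8.02 CPM with ACS and 50.1, 30.3 and 45.5 CPM with MSC-CM (log2 fold change -2.20 ± 0.20, adjusted p = 0.000293, limma, called in 6 of 6 fits). Of 44 factors tested, CEBPD and KLF2 were called lower and IRF8 higher. Its relative CEBPB (0.23) was a little higher in all ACS libraries without being called. Among 20 glucocorticoid response genes tested, CD163, CEBPD, DDIT4 and MERTK were called lower and IL1R2 higher. The classical target FKBP5 (-0.09) had overlapping groups, and TSC22D3 (-0.70, adjusted p = 0.0311, limma) passed the test but not the 2-fold limit.

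**Figure D3:**
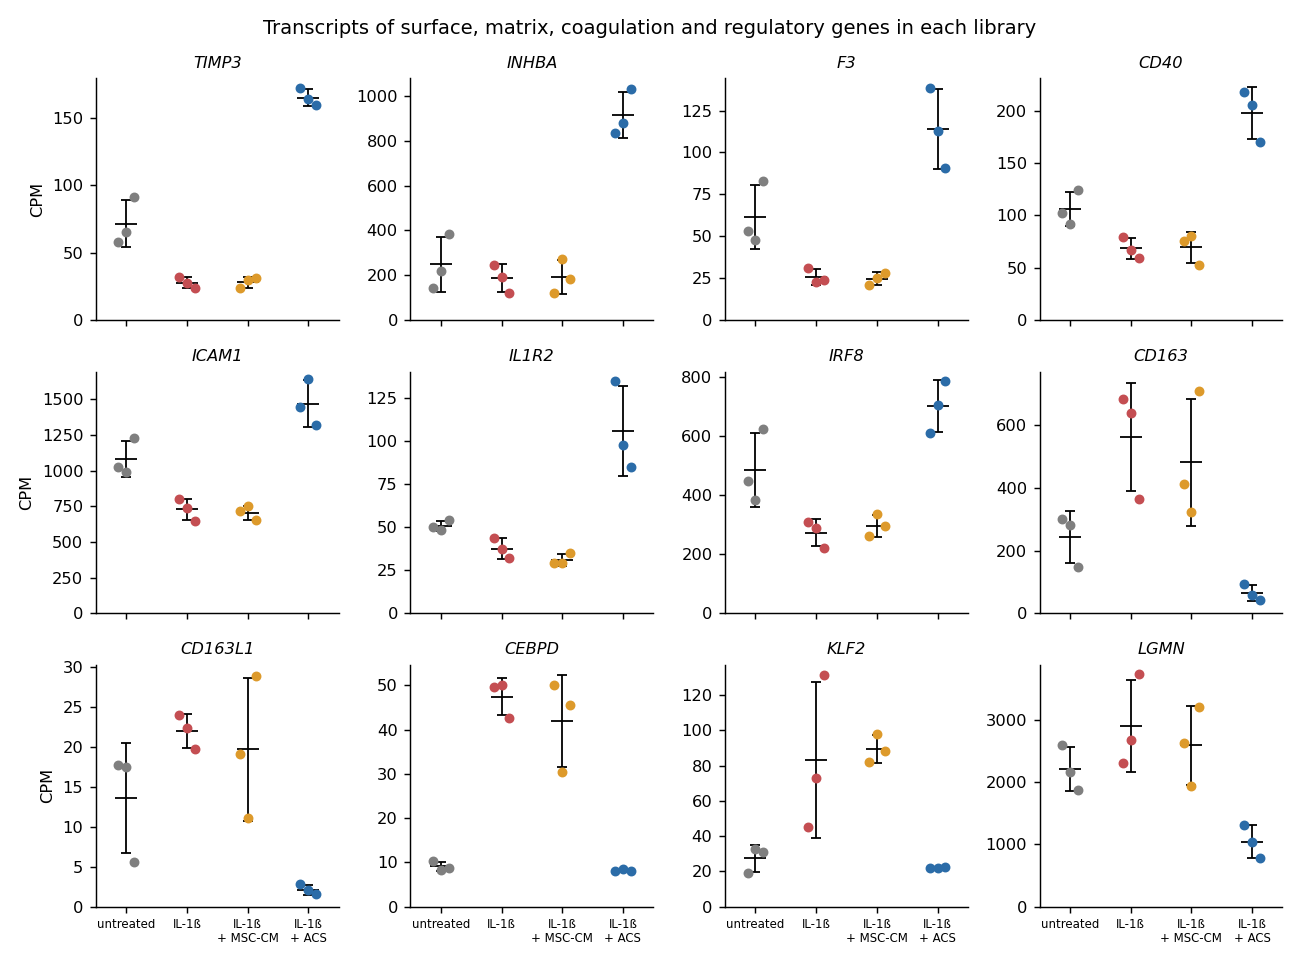
CPM of 12 genes of the cell surface, matrix, coagulation and regulation in each library of 4 groups, with every library as a point and the mean ± SD as bars. In TIMP3, INHBA, F3, CD40, ICAM1, IL1R2 and IRF8 the ACS libraries lie above all MSC-CM libraries, and in CD163, CD163L1, CEBPD, KLF2 and LGMN below them.

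Genes that ATF4 induces when amino acids run short formed the list with the most called members. Of 38 tested, 13 (34.2%) were called, all lower with ACS, beside 0.636% of all genes. In 27 of the 38 all ACS libraries lay below all MSC-CM libraries, beside 22.2% of all genes, and in 3 above, beside 12.9%. The median log2 fold change was -0.83 and stayed between -0.96 and -0.73 when 1 library was left out. Several of the called members act in the synthesis of serine and glycine. PSAT1, the aminotransferase of that pathway, stood at 17.6, 14 and 13 CPM with ACS and 70.4, 78.5 and 96.0 CPM with MSC-CM (log2 fold change -2.38 ± 0.35, adjusted p = 0.00383, limma, called in 6 of 6 fits). PHGDH, which opens the pathway, stood at 2.73, 3.37 and 4.13 CPM against 14.1, 19.6 and 15.3 CPM (log2 fold change -1.97 ± 0.26, adjusted p = 0.00240, limma, called in 6 of 6 fits). PSPH, which closes it, differed less, at 12.4, 13.4 and 14.2 CPM against 26.5, 24.8 and 33.2 CPM (log2 fold change -1.02, called in 1 of 6 fits). All 3 enzymes of the chain were thus lower with ACS.

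ASNS, asparagine synthetase, stood at 25.6, 20.8 and 17.6 CPM with ACS and 84.1, 94.1 and 110 CPM with MSC-CM (log2 fold change -2.13 ± 0.28, adjusted p = 0.00240, limma, called in 6 of 6 fits). GPT2, a mitochondrial alanine aminotransferase, was at 1.01, 1.32 and 1.67 CPM against 7.70, 10.1 and 9.29 CPM (log2 fold change -2.11 ± 0.25, called in 6 of 6 fits). CHAC1, which breaks down glutathione, fell most on the log scale, at 4.01, 3.90 and 1.32 CPM against 20.4, 17.6 and 20.01 CPM (log2 fold change -2.40 ± 0.40, adjusted p = 0.00766, limma, called in 6 of 6 fits). Some regulators within the response moved alike. TRIB3, a pseudokinase that feeds back on ATF4, stood at 19.5, 15.9 and 16.4 CPM against 67.0, 63.0 and 77.3 CPM, and DDIT4, an inhibitor of mTORC1, at 15.4, 11.2 and 10.8 CPM against 44.0, 47.5 and 48.7 CPM. Both had an adjusted p of 0.000293 (limma) and were called in 6 of 6 fits. EIF4EBP1, a repressor of translation, had a log2 fold change of -1.34 (6 of 6 fits). The amino acid transporters SLC1A4 (-1.75, 0 of 6 fits) and SLC6A9 (-1.59, 2 of 6 fits), the stress protein NUPR1 (-1.51, 1 of 6 fits) and the mitochondrial enzyme PCK2 (-1.15, 0 of 6 fits) complete the 13.

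Not every ATF4 target followed. ATF4 itself was lower in all ACS libraries, at 408, 416 and 415 CPM against 806, 672 and 728 CPM, without being called (log2 fold change -0.83 ± 0.24, adjusted p = 0.120, limma). DDIT3, which encodes CHOP, was likewise lower without a call (-0.81, adjusted p = 0.0918, limma). VLDLR (0.93), WARS1 (0.38) and CEBPB (0.23) had all ACS libraries above, and ATF3 (0.51) and GDF15 (0.13) overlapped. With RLE size factors 10 of the 38 were called and with edgeR 12.

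Some genes of protein folding in the endoplasmic reticulum, the compartment where secreted proteins are made, were lower with ACS too. Of 29 tested, 4 were called, all lower, beside 0.636% of all genes, and edgeR called 2. In 18 all ACS libraries lay below, beside 22.2% of all genes, and in none above. HSPA5, the chaperone BiP, stood at 834, 735 and 689 CPM with ACS and 1803, 1584 and 2391 CPM with MSC-CM (log2 fold change -1.34 ± 0.21, adjusted p = 0.00635, limma, called in 6 of 6 fits). HERPUD1, which serves the degradation of misfolded proteins, stood at 103, 109 and 124 CPM against 265, 252 and 355 CPM (log2 fold change -1.36 ± 0.19, adjusted p = 0.00347, limma, called in 6 of 6 fits). SDF2L1 (-1.43) and CRELD2 (-1.33), both resident proteins of the compartment, were called in 1 of 6 fits each, and both lost the call with edgeR, SDF2L1 also with RLE size factors. HYOU1 (-0.98, adjusted p = 0.0130, limma) and XBP1 (-0.78, adjusted p = 0.00554, limma) passed the test but not the 2-fold limit. Of 17 heat shock proteins tested, 5 had all ACS libraries above and 2 had all below, beside 12.9% and 22.2% of all genes, with a median of 0.02. None was called by limma, DESeq2 or edgeR, and 3 were at an unadjusted p of at most 0.05.

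Levels in the reference libraries are given for 3 called genes of these lists and for 3 that stood otherwise. CHAC1 averaged 1.34 CPM ± 0.366 (SD, n = 3) in untreated macrophages and 17.2 ± 6.95 with IL-1ß alone, against 3.07 ± 1.52 with ACS and 19.3 ± 1.53 with MSC-CM. TRIB3 averaged 16.5 ± 2.44 CPM untreated and 68.5 ± 9.08 with IL-1ß alone, against 17.3 ± 1.93 and 69.1 ± 7.35. HSPA5 averaged 780 ± 39.6 CPM untreated and 1662 ± 525 with IL-1ß alone, against 753 ± 74.1 and 1926 ± 417. NUPR1 was lower with ACS than in untreated macrophages, at 7.85 ± 1.13 against 21.0 ± 7.19 CPM. SLC6A9 averaged 14.8 ± 1.98 CPM with MSC-CM against 6.18 ± 3.07 with IL-1ß alone, and PSAT1 81.6 ± 13.1 against 48.3 ± 23.8. Over the ATF4 list the median difference from IL-1ß alone was -0.60 with ACS and 0.23 with MSC-CM, and over the folding list -0.33 and 0.17. Over all genes tested it was 0.13 with ACS and 0.16 with MSC-CM. Over the ATF4 list the median difference from untreated macrophages was 0.05 with ACS and 0.61 with MSC-CM on the log2 scale, and over the folding list -0.01 and 0.60. Over all genes tested that difference was 0.08 with ACS and 0.10 with MSC-CM. All of these differences share the reference libraries, so they are given side by side without a test.

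**Figure D4:**
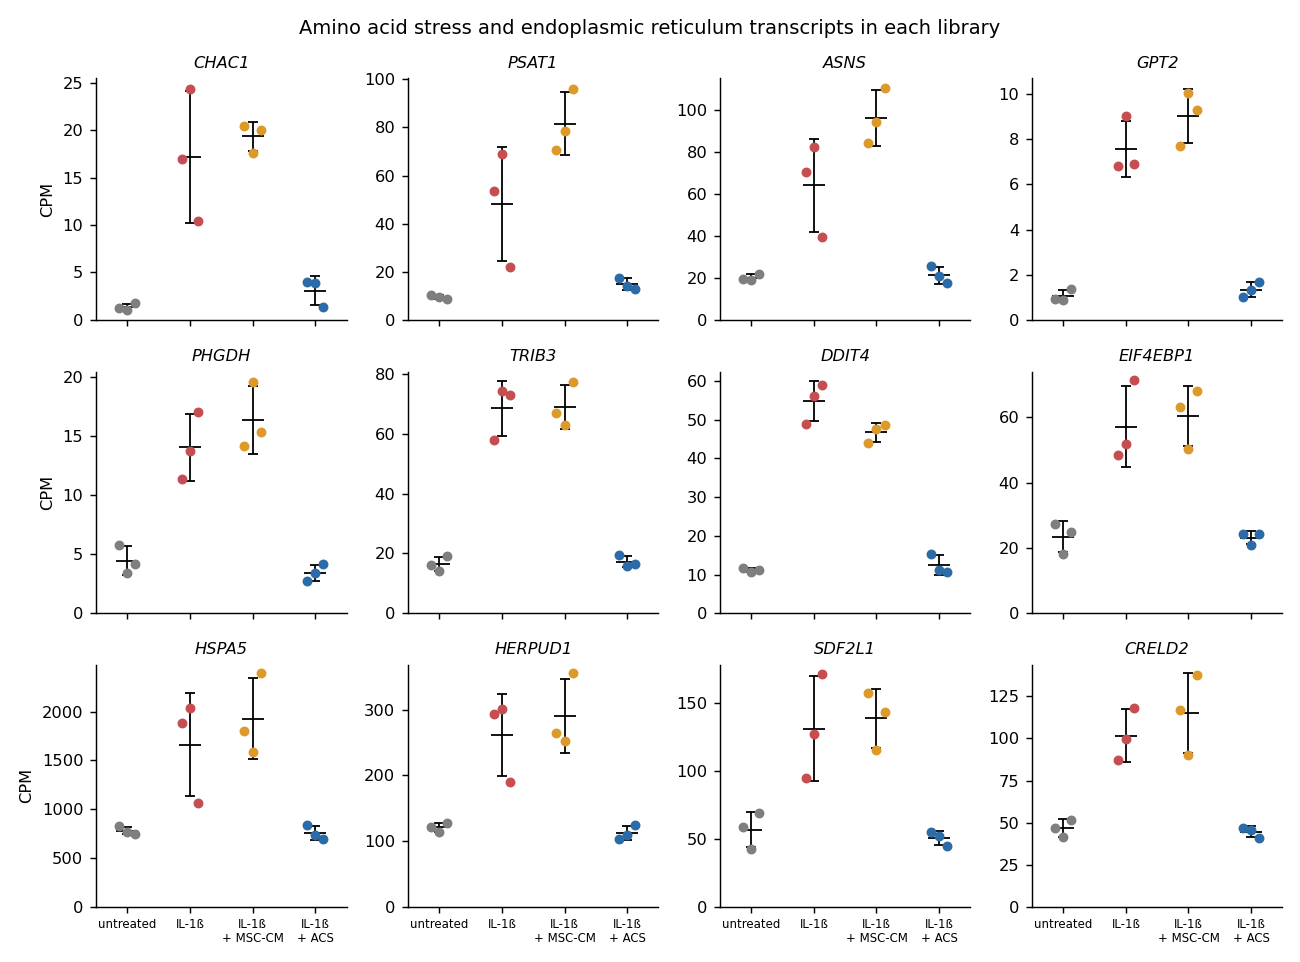
CPM of 8 amino acid stress genes and 4 endoplasmic reticulum genes in each library of 4 groups, with every library as a point and the mean ± SD as bars. In all 12 panels the 3 ACS libraries lie below the 3 MSC-CM libraries and nearer to the untreated mean than to that of IL-1ß alone, as for TRIB3 at 17.3 CPM with ACS and 16.5 CPM untreated.

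Of 21 targets of the liver X receptors, nuclear receptors that answer oxysterols by exporting cholesterol, ABCG1, SMPDL3A and MERTK were called, all lower, beside 0.636% of all genes, and none of these calls held in more than 1 of 6 fits. ABCG1, a cholesterol exporter, stood at 25.9, 23.3 and 20.9 CPM with ACS and 59.0, 62.9 and 76.5 CPM with MSC-CM (log2 fold change -1.46 ± 0.31, adjusted p = 0.0284, limma), with the call lost in each of the 6 fits (adjusted p up to 0.156). SMPDL3A, a phosphodiesterase, had a log2 fold change of -1.25 (1 of 6 fits). LPL, lipoprotein lipase, ran against them at 2593, 2480 and 1613 CPM against 941, 1073 and 835 CPM without being called (adjusted p = 0.196, limma), and the other large exporter ABCA1 (-0.77) overlapped. Among 35 genes of cholesterol synthesis and SREBP targets none was called by limma, DESeq2 or edgeR, and 2 were at an unadjusted p of at most 0.05. Of 27 PPAR targets tested, ANGPTL4 was the 1 called.

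The lists of lysosomal genes (1 of 64, 1.56%), hypoxia and glycolysis (1 of 39, 2.56%) and immunoglobulin-like receptors (1 of 12) each held 1 called member, lower with ACS, and the first pair of shares is near the 1.23% called among all genes. LGMN, the asparaginyl endopeptidase legumain, was the most abundant called gene lower with ACS, at 1310, 1037 and 785 CPM against 2626, 1941 and 3205 CPM (log2 fold change -1.31 ± 0.25, adjusted p = 0.0179, limma). Its call held without ACS replicate 1 and without MSC-CM replicate 2 and was lost in the other 4 fits and with edgeR. The remaining 63 lysosomal genes tested gave no call, with a list median of -0.02, between -0.06 and 0.06 when 1 library was left out. HK3, a hexokinase of myeloid cells, had a log2 fold change of -1.35 (26.3, 24.1 and 20.1 CPM against 61.4, 59.0 and 63.4 CPM, adjusted p = 0.000706, limma, called in 6 of 6 fits), and the other 38 hypoxia and glycolysis genes were not called. LAIR1, an inhibitory collagen receptor, had a log2 fold change of -1.42 (1 of 6 fits). RNASE6, an antimicrobial ribonuclease, had one of -1.89 (2 of 6 fits), and NLRP12, a regulatory NOD-like receptor, one of -1.07 at 0.0527 to 0.491 CPM against 1.16 to 2.08 CPM (2 of 6 fits, lost with edgeR at an adjusted p of 0.191). ALDH1L1, a folate enzyme, completes with LGMN, HSPA5, CD163 and HERPUD1 the 5 most abundant called genes lower with ACS, at 134, 126 and 115 CPM against 288, 213 and 298 CPM (called in 5 of 6 fits, lost without MSC-CM replicate 3).

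In several large lists no gene was called. Of 62 cytosolic ribosomal protein genes tested, limma, DESeq2 and edgeR called none and 8 were at an unadjusted p of at most 0.05, yet in 56 all ACS libraries lay below all MSC-CM libraries, beside 22.2% of all genes tested. Their CPM summed to 31015 to 31239 with ACS and 39248 to 50414 with MSC-CM. Most have near-identical copies, so single genes are uncertain. With RLE size factors the median moved from -0.44 to -0.39.

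Of 67 cell cycle and replication genes, 40 lay wholly below with ACS and 2 above, beside 22.2% and 12.9% of all genes here and in the lists that follow. The median was -0.40, and limma, DESeq2 and edgeR called none, although 19 had an unadjusted p of at most 0.05. Type I interferon stimulated genes had 17 of 44 below and 2 above (median -0.19), with none called by limma, DESeq2 or edgeR and 5 at an unadjusted p of at most 0.05. Complement genes had 10 of 18 below and 1 above (median -0.36), with none called by these 3 tools and 6 at such a p. Oxidative phosphorylation had 15 of 56 below and 1 above, with 0 called by the 3 tools and 1 at such a p. Its median was -0.17, between -0.22 and -0.06 when 1 library was left out.

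**Figure D5:**
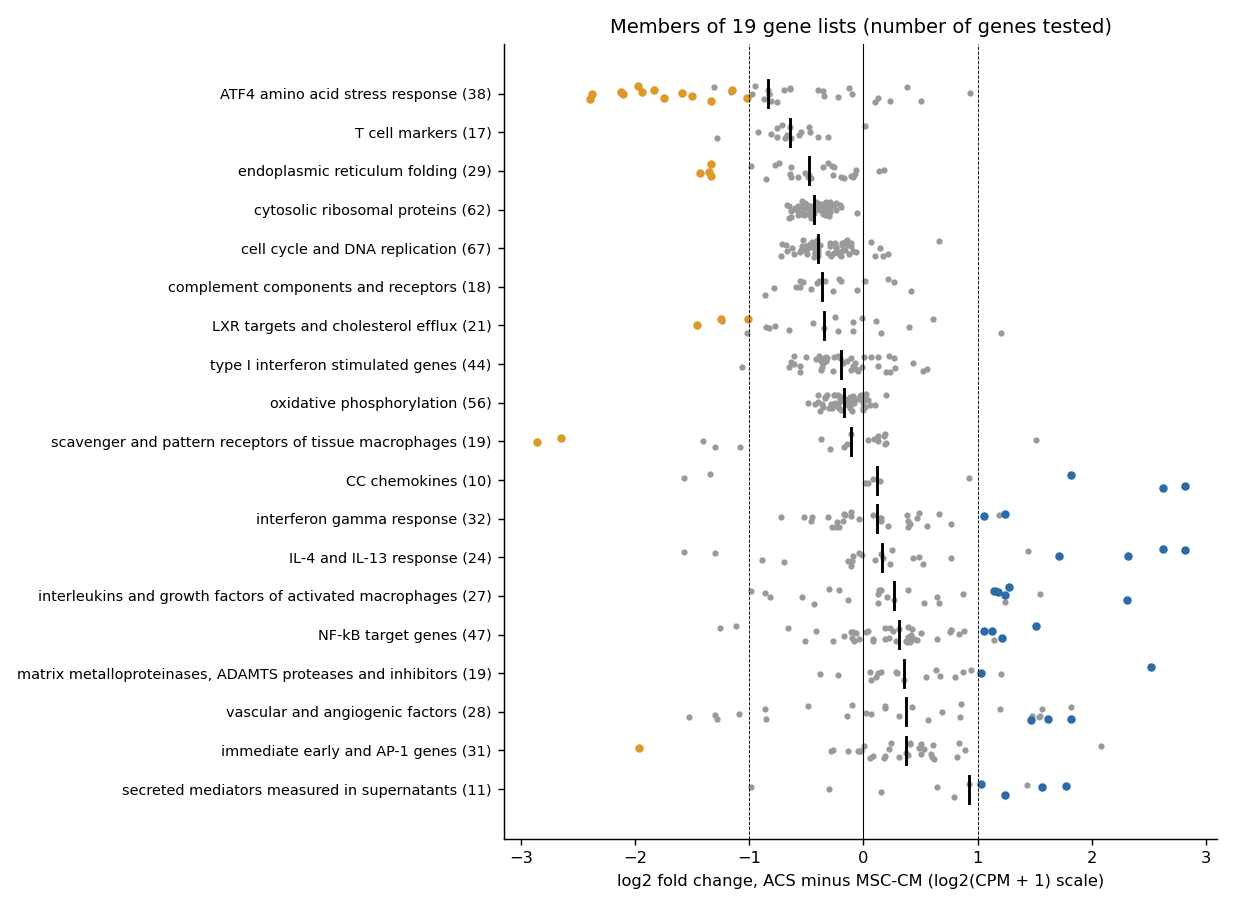
Each point is the log2 fold change, ACS minus MSC-CM, of 1 gene in 1 of 19 lists, with called genes in colour, the list median as a black bar and dashed lines at 2-fold. The ATF4 list has the lowest median (-0.83) and 13 called genes, ribosomal proteins form a tight group around -0.44 with no call, and the secreted mediators have the highest median (0.92).

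Markers of other cell types were examined next. Of 17 T cell markers tested, 13 lay wholly below with ACS, beside 22.2% of all genes, and none above (median -0.64). None was called by limma, DESeq2 or edgeR, and 10 had an unadjusted p of at most 0.05. CD3E, a chain of the T cell receptor complex, stood at 171, 172 and 207 CPM against 342, 288 and 274 CPM. B cell markers had 4 of 8 below, beside the same 22.2%, and summed to 158 to 272 CPM with ACS and 250 to 295 CPM with MSC-CM. NK and cytotoxic markers overlapped in sum, at 916 to 1249 CPM against 946 to 1084 CPM. Platelet markers summed to 230 to 339 CPM with ACS and 132 to 180 CPM with MSC-CM, but 7 of 12 genes, among them GP9, GP1BA and TUBB1, stayed under 1 CPM in both groups. Neutrophil markers summed to 530 to 760 CPM with ACS and 268 to 432 CPM with MSC-CM over 6 genes, of which only the receptor gene CSF3R was tested and not called, and ELANE, LTF and S100A12 were under 1 CPM in both groups. Erythroid markers summed to 4.23 to 5.004 CPM against 4.84 to 6.61 CPM. Fibroblast and stromal markers summed to 39.6 to 48.3 CPM with ACS and 37.3 to 43.7 CPM with MSC-CM, with DCN, LUM and PDGFRA under 1 CPM in both. The part of other cell types in the differences of ribosomal protein, cell cycle, chemokine and other genes was not tested.

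Several called genes lie next to or near each other in EquCab3.0. CCL22 (chromosome 3, 10308740 to 10313566), the entry without a symbol that the paper pairs with CX3CL1, and CCL17 (10345976 to 10357681) are consecutive. All of them were higher with ACS. CD163L1 and CD163 (chromosome 6, 35823740 to 35918134) are consecutive and both were lower. LTA and TNF on chromosome 20 are separated by 2067 bases, and CXCL1 and CXCL8 on chromosome 3 have 3 listed genes between them. SLAMF9 and SLAMF8 (log2 fold change -1.04, called in 1 of 6 fits) on chromosome 5, also with 3 listed genes between them, were both lower with ACS. Whether neighbouring or overlapping entries share reads cannot be told from the deposited values.

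Among the 143 genes, 24 carry no symbol in the deposited values, 9 of them higher with ACS and 15 lower. The largest rise on the log2(CPM + 1) scale was that of ENSECAG00000036967, between AKNA and WHRN on chromosome 25, at 163, 121 and 111 CPM with ACS and 17.3, 15.7 and 13.9 CPM with MSC-CM (log2 fold change 2.98 ± 0.28, adjusted p = 0.000293, limma, called in 6 of 6 fits). ENSECAG00000041707 on chromosome 1 rose from 13.6, 14.5 and 14.6 CPM to 96.8, 79.4 and 110 CPM (6 of 6 fits). The largest falls of unnamed genes on that scale were those of ENSECAG00000038794 (log2 fold change -2.98) and ENSECAG00000017042 (-2.64), neighbours between MS4A2 and MS4A7 on chromosome 12 that were called in 6 of 6 fits. What these genes encode was not settled here.

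Set beside the reference libraries, the called genes showed where each product stood. For the 69 genes higher with ACS, the median log2 difference from IL-1ß alone was 1.37 with ACS and -0.03 with MSC-CM, and from untreated macrophages 0.78 and -0.61. For the 74 lower genes it was -1.43 and -0.03 from IL-1ß alone, and -0.69 and 0.69 from untreated macrophages. With MSC-CM all 69 higher genes and 72 of the 74 lower ones stayed within 2-fold of IL-1ß alone on the log2(CPM + 1) scale. These medians were taken over genes chosen for the difference between the products and share libraries with it, so they are a description only.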

How the data were processed

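Polyadenylated RNA of equine macrophages was measured in 5 groups of 3 libraries. Per the paper's methods and the labels, the authors trimmed reads, aligned them with STAR 2.7.3 to EquCab3.0, counted them with HTSeq and deposited CPM for 16932 genes. The strand setting is not given in the sources used here. The 11628 genes averaging 1 CPM or more across the 15 libraries were tested with limma 3.58.1 (intensity trend) on log2(CPM + 1), all 5 groups in 1 model, contrast ACS minus MSC-CM. Genes just inside this limit averaged 1.00 CPM. Fold changes of low genes are understated on this scale. The study's methods used DESeq on CPM. Whole reads were recovered from the CPM steps, with 99.52% of values whole within 0.05 read, and served edgeR 4.0.16 and DESeq2 1.42.0 as alternatives. The limits were an adjusted p of 0.05 and a fold of 2. Folds are ratios of mean CPM. The main limma fit and the edgeR and DESeq2 fits were tested on simulated counts with the same dispersion in every group. The other steps were not.

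Members and gene lists were chosen with earlier results of these data known. The lists, 59 in all, were written from general knowledge and support no test of their own. Genes were named as the 10 largest rises and falls, the 5 most abundant called genes in each direction, up to 4 called genes a list, the mediators measured in supernatants with IL1RN, and members needed to account for a list. At most 2 unnamed genes in each direction are given by identifier. Depth precision covers counting error only. Both products came from the same 3 donors, but their libraries could not be matched and the model is unpaired. The p-values rest on the spread pooled over all 5 groups, 2 of which hold technical replicates. Alternatives were RLE and TMM factors, DESeq2, edgeR, a pseudocount of 0.1, no filter, a filter over the 6 libraries, no fold limit, the 6 libraries alone, leaving out the 2 libraries of other groups that stand apart, and leaving out each of the 6 libraries.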

Additional observations from a re-analysis of the deposited data

How the results depend on the processing

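The number of called genes, 143, stayed within 1.5 times with RLE size factors (137), TMM factors (136), edgeR (126), a pseudocount of 0.1 (142), no filter (120) and a filter over the 6 libraries (144). It moved to 292 with DESeq2, 223 with no fold limit, 323 with only the 6 libraries and 324 without the 2 libraries of other groups that stand apart. Without 1 ACS or MSC-CM library it ranged from 53 to 125, in fits that pool the spread of all groups and have fewer samples. Of the 143, 140 were shared with DESeq2, 112 with edgeR and 115 with RLE size factors, all with the same sign. List members called numbered 60, with 57 under RLE size factors, 97 with DESeq2 and 115 with only the 6 libraries. The cause of the larger counts was not tested. The median log2 fold change of -0.04 became 0.01 with RLE size factors. The median SD of 0.135 with ACS and 0.191 with MSC-CM became 0.130 and 0.191 with RLE size factors and 0.144 and 0.206 with a pseudocount of 0.1. Over 67 named genes and 1004 comparisons with an alternative, 844 kept their side of the limits, 157 lost it, 3 gained it and 0 changed sign. In called genes the groups do not overlap, so leaving out 1 library could not turn the sign. Several other alternatives keep the same group means. The count of 0 is therefore no support for the directions. No paired analysis was possible because the ACS labels carry no replicate number, although the products share donors. Values under 1 CPM rest on fewer than 36.7 reads in the shallowest of the 6 libraries.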

Other observations

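Some called genes belong to none of the lists described above, 83 of the 143. The 3 that follow were called higher with ACS in all 6 fits that leave out 1 library. OCSTAMP, which takes part in the fusion of macrophages into osteoclasts and giant cells, stood at 444, 435 and 325 CPM with ACS and 162, 170 and 120 CPM with MSC-CM (log2 fold change 1.41 ± 0.19, adjusted p = 0.00298, limma with Benjamini-Hochberg adjustment). EPHA2, an ephrin receptor, had a log2 fold change of 1.44 (56.4, 57.3 and 49.0 CPM against 18.0, 25.2 and 15.7 CPM). JAM2, a junctional adhesion molecule, had one of 1.47 (43.7, 38.6 and 39.0 CPM against 12.8, 13.9 and 15.4 CPM). These genes were picked after their values were seen.

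Among the lower genes outside the lists, TMEM176B stood at 25.7, 27.6 and 23.5 CPM with ACS and 75.1, 55.5 and 80.3 CPM with MSC-CM (log2 fold change -1.41), and CD72, an inhibitory lectin, at 3.90, 3.42 and 4.01 CPM against 14.3, 11.2 and 13.8 CPM (-1.55). Both were called in all 6 fits and were likewise picked after their values were seen.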
